A study of Drosophila melanogaster with 2 samples.

Results

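The translation initiation factor (eIF) and elongation factor (eEF) genes of Drosophila melanogaster were examined for binding of CG10348, a zinc-finger protein, near their transcription start sites (TSSs). The members were all protein-coding genes of the Ensembl annotation of assembly BDGP6, whose coordinates are those of dm6, with a symbol that begins with eIF or eEF. They numbered 52 of the 13945 protein-coding genes on chromosome arms 2L, 2R, 3L, 3R, 4 and X, 44 of them eIF genes and 8 eEF genes. The rule that picks them uses gene symbols and no measured value, although the set was taken up with earlier results of these data known.

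The assay was ChIP-seq with an anti-GFP antibody on chromatin of whole pupae at an age of 2 days. The strain, labelled CG10348-GFP, is a transgenic line that makes CG10348 fused to eGFP, and sex was not recorded. Both biological replicates belong to the same group, and no other condition was studied. The sources used here do not give the promoter of the fusion gene or its level against the endogenous protein. In whole animals, strong binding in few cells and weak binding in many cannot be told apart.

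Initiation factors bring the initiator tRNA and the small ribosomal subunit to the mRNA cap and the start codon, and elongation factors then deliver aminoacyl-tRNAs and move the ribosome along. The eIF2 complex carries the initiator tRNA, and eIF2B reloads it with GTP. The eIF4 group recognises and unwinds the capped end, the large eIF3 complex holds the initiation complex together, eIF5 and eIF5B serve start codon recognition and the joining of the subunits, and eIF6 keeps the large subunit from joining too early and takes part in making it.

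A peak is a region that the authors called as enriched, and its summit is the point of highest enrichment. A gene was called bound when the summit of a peak in the authors' conservative list lay within 1 kb of any of its TSSs. That list kept regions past a threshold on the irreproducible discovery rate (IDR), a measure of how reproducibly a region is ranked between the replicates. Signal is the strength that the authors gave each peak. Its scale is unknown, so it describes and ranks peaks within 1 list, and a ratio between the replicates is read only against the same ratio over all peaks. The conservative list held 1814 peaks, the less strict optimal list 1934, replicate 1 alone 1284 and replicate 2 alone 1027. Read depth is unknown, because the lists give no read counts.

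Sequences around summits are shown for 3 loci, to let the runs of A and T described further on be seen. The sequence at eIF6 is not printed. No call, rank or offset rests on the printed sequences. Each line gives the bases around a summit on the plus strand of dm6, read 5′ to 3′ from the RefSeq genome of the same assembly, from 50 bases before the summit to 49 after it and without bases of annotated exons. Capitals mark words of A and T that were searched on both strands, which are TTTAAA at eIF2Bbeta, AAATAT at eIF5B and TAATTA at eIF4EHP.
eIF2Bbeta, chrX:2703853-2703940: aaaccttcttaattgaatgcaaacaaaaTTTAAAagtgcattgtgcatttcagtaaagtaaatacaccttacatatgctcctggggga
eIF5B, chr3L:3460645-3460706: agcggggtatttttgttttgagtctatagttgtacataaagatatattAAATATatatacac
eIF4EHP, chr3R:24109146-24109245: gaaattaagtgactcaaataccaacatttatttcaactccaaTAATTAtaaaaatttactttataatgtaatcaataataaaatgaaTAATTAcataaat

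Few of these genes were bound, and their share was near that of all genes. Of the 52 members, eIF2Bbeta, eIF5B and eIF6 had a conservative summit within 1 kb of a TSS, which is 5.77% (Wilson 95% interval 1.98 to 15.6), beside 7.7% of all 13945 genes. The interval covers counting error over genes only, and no test was made of the list. None of the 8 eEF genes was bound. They include those that encode eEF1alpha and eEF2, the main factors for delivering aminoacyl-tRNA and for translocation. None of the 16 eIF3 genes was bound either, and 1 of 5 eIF2B genes was. All 3 eIF2 genes, the single eIF4A gene, the 3 genes for eIF4B and eIF4H, the 7 genes for cap-binding proteins of the eIF4E group and both eIF4G genes lacked a conservative summit, as did eIF1, eIF1A, eIF2A, eIF2D and eIF5. With only 7.7% of all genes bound, groups this small can easily lack a bound gene. These absences therefore say little about any group.

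The bound genes differed widely in strength. The eIF6 gene (FBgn0034915) is at 2R 23849246 to 23850301 on the minus strand, and its peak at 2R 23850298 to 23850531 had a pooled signal of 557. It ranked 12 of 1814 conservative peaks, and 8 promoter peaks were stronger. Its region had a signal of 268 in replicate 1, where it ranked 23 of 1284, and of 290.4 in replicate 2, where it ranked 6 of 1027. The gene was thus among the strongest targets in both replicates, and the replicate values differed by a log2 ratio of -0.11 (replicate 1 over replicate 2).

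The summit at eIF6 lay 102 bp upstream of its single TSS, which was the nearest TSS of any gene. The replicates placed it 5 and 0 bp from the pooled position. This point is also in an intron of ytr, whose annotated span encloses eIF6 on the same strand and whose nearest start is 670 bp away. The gene gbb, which encodes a BMP ligand, starts 1159 bp from the summit on the other strand, just outside the limit. In the order of signal, the conservative peaks just above were those nearest to mRpL41 (594.6) and CG4496 (589.2), and those just below were nearest to CG13323 (549.7) and Trl (540.6).

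eIF2Bbeta (FBgn0024996), which encodes a regulatory subunit of eIF2B, had the strongest peak of all members. It is at X 2704571 to 2706217 on the plus strand, and the peak at X 2703744 to 2704019 had a pooled signal of 932, rank 2 of the conservative list. The signal was 523 in replicate 1 and 414 in replicate 2, rank 2 in each thresholded list. The summit lay 680 bp upstream of the eIF2Bbeta TSS but 39 bp upstream of Ugalt, which is transcribed in the opposite direction and encodes a UDP-galactose transporter. Counted only for the gene with the nearest TSS, eIF2Bbeta was not bound and eIF6 and eIF5B remained (3.85%, beside 5.68% of all genes).

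The peak at eIF5B was weak. eIF5B (FBgn0026259), a GTPase that joins the ribosomal subunits, is at 3L 3428658 to 3460977 on the minus strand, and its peak at 3L 3460527 to 3460862 had a pooled signal of 56.8, rank 1582 of 1814. The ranked regions there had 30.7 in replicate 1 and 25.8 in replicate 2, and neither replicate's own thresholded list contained one. The summit was in an eIF5B intron, 92 bp upstream of an inner TSS and 282 bp downstream of the outermost one. The starts of armi, an RNA helicase gene of the piRNA pathway, and of CG46463 lie 622 and 620 bp from the summit on the opposite strand.

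**Figure D1:**
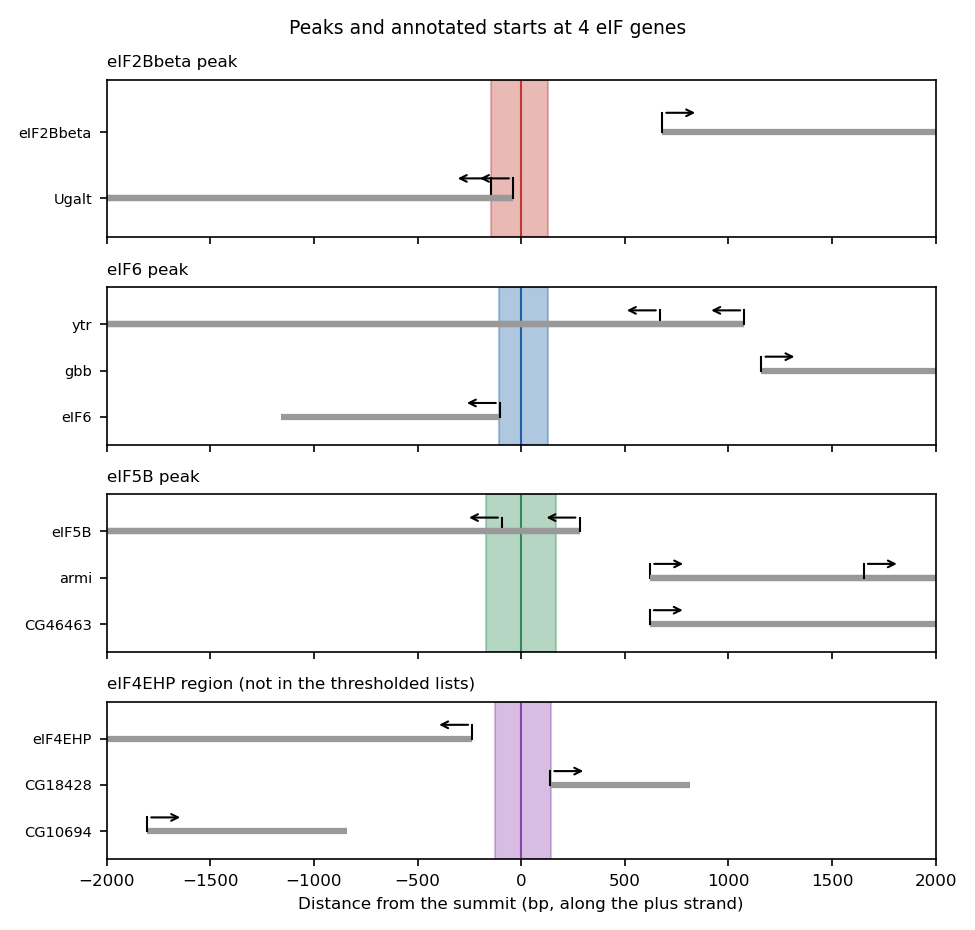
Maps of the peaks at eIF2Bbeta, eIF6, eIF5B and eIF4EHP, with distance from the summit in bp on the x axis. Shaded bands are the peaks or regions, grey bars the gene spans (clipped at 2000 bp) and arrows the annotated TSSs with their direction; the starts of eIF6, eIF2Bbeta and eIF4EHP lie 102, 680 and 236 bp from their summits.

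A strong region next to eIF4EHP was in no thresholded list. eIF4EHP (FBgn0053100), at 3R 24063077 to 24108960 on the minus strand, encodes a cap-binding protein that represses translation by competing with eIF4E, and is known in the Drosophila embryo for repression of caudal and hunchback mRNA. The pooled ranked list, which holds regions above and below the IDR threshold, had a region at 3R 24109070 to 24109338 with a signal of 482, the full score of 1000 and rank 25 of 138658. The signal was 311 in replicate 1, rank 14 of its ranked list, and 168 in replicate 2, rank 54, with the full score in both. Both values are far above those of eIF5B, and only 23 conservative peaks had a higher pooled signal. The ratio of the replicates was 0.89 on the log2 scale, against a median of 0.28 and an SD of 0.47 over 1779 conservative peaks with a region in both.

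The summit lay 236 bp upstream of the eIF4EHP TSS and 140 bp from that of CG18428, which is transcribed in the opposite direction. The region was 1 of 96 in the pooled ranked list that scored at least 830, the lowest score in the conservative list, and were absent from that list. Of these, 61 were on the arms studied, 30 of them on 3R, and none overlapped any of the 4 thresholded lists. By signal it was number 2 among them. Per the deposited file descriptions, the thresholded lists were derived with a further file that the ranked lists were not, and the role of that file was not stated. With the 96 regions added, 4 of 52 members (7.69%) and 7.8% of all genes were bound.

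**Figure D2:**
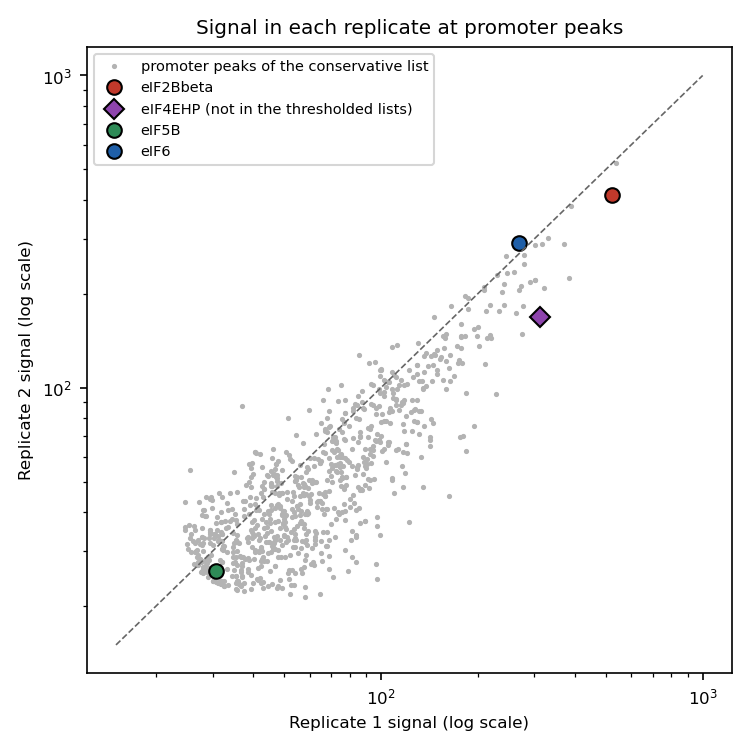
Signal in replicate 1 (x axis) against replicate 2 (y axis), both on log scales, for promoter peaks of the conservative list (grey) and the regions at 4 eIF genes; the dashed line marks equal values. eIF2Bbeta (523 and 414), eIF6 (268 and 290.4) and the eIF4EHP region (311 and 168) sit at the upper end and eIF5B (30.7 and 25.8) at the lower end.

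The strong peaks were called in both replicates and the weak one in neither. The peaks at eIF2Bbeta and eIF6 overlapped a peak of both replicates' thresholded lists, and that at eIF5B overlapped none. Over all 860 promoter peaks 462 (53.7%) were in both lists, 199 in 1 and 199 (23.1%) in neither. Among the 214 promoter peaks with a signal of at most 70, like that of eIF5B, 158 (73.8%) were in neither. Some of these weak entries overlap the same replicate regions as a stronger peak, as rank 1753 does with rank 17 (302 and 222 at each). They take the calls of the stronger peak, so the share is not one of separate weak peaks alone. The log2 ratios of replicate 1 to replicate 2 were 0.34 at eIF2Bbeta and 0.25 at eIF5B, each within 1 SD of the median given above, as was that at eIF6.

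One further member was called in other lists. eIF3c (FBgn0034258), which encodes a core subunit of eIF3, had an optimal peak at 2R 17665524 to 17665859 with a signal of 68.9 and its summit 14 bp downstream of the TSS, in the 5' UTR. In the list of replicate 2 it had a peak of 41, and in replicate 1 its region had 24 and was not in the thresholded list. In the pooled ranked list it scored 829, against 830 for the lowest conservative peak. With the optimal list 4 members (7.69%) were bound, beside 8.16% of all genes. Replicate 2 alone gave eIF2Bbeta, eIF3c and eIF6 (5.77%, beside 4.96%), and replicate 1 alone eIF2Bbeta and eIF6 (3.85%, beside 6.17%). eIF2Bbeta and eIF6 were thus the members called in all 4 thresholded lists. They alone also remained among peaks at or above the median signal (3.85%, beside 4.9% of all genes) and at an IDR of at most 0.001 (3.85%, beside 4.35%).

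Summits at the bound members lay upstream of the member's nearest TSS, as did most promoter summits of the nearest TSS of any gene. The offsets were -680, -102 and -92 bp for eIF2Bbeta, eIF6 and eIF5B, with a median of -102 bp, where a negative value is upstream of the nearest TSS of the member. Over all 1184 pairs of a gene and a summit within 1 kb the median was -169 bp, and 23.2% of the pairs were more than 500 bp apart, as that of eIF2Bbeta was. With only the outermost TSS of each gene the same 3 members were bound (5.77%, beside 6.39%), but the eIF5B summit was then 282 bp downstream. Within 500 bp of a TSS 2 members (3.85%) had a summit, beside 6.09% of all genes, and within 250 bp the same 2, eIF5B and eIF6, beside 4.63%. The median signal at the bound members was 557, beside 97.6 over all promoter peaks, but 3 values from 56.8 to 932 fix no typical strength.

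**Figure D3:**
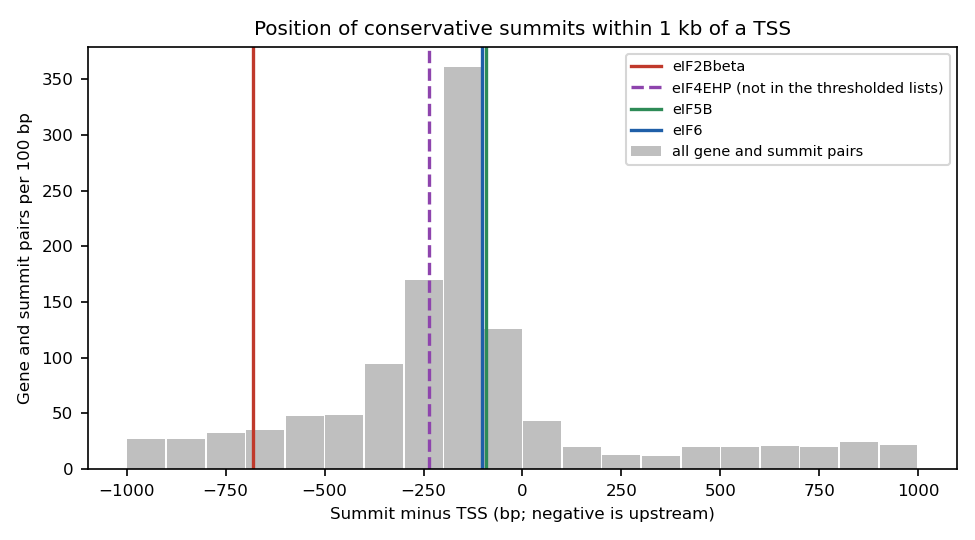
Histogram of the distance from TSS to summit in bp (x axis, negative is upstream) for all gene and summit pairs within 1 kb, as pairs per 100 bp (y axis), with lines at the eIF genes. eIF6 (-102), eIF5B (-92) and the eIF4EHP region (-236) fall in the densest part of the histogram and eIF2Bbeta (-680) in its upstream tail.

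Members just outside the limit carried modest peaks. eIF4G2 (FBgn0260634), which encodes an eIF4G scaffold paralogue, had a summit 1106 bp downstream of a TSS in an intron shared with CG33111 and CG34355, with a pooled signal of 91.7. The peak was in both replicates' thresholded lists, with 43.5 in replicate 1 and 44.3 in replicate 2. At eIF3d1 (FBgn0040227), for the eIF3d subunit, a summit lay 1301 bp upstream, with 62 in the pool, 42.1 in replicate 1 and 24.5 in replicate 2, and the nearest TSS was that of GILT2. Within 2 kb 5 members (9.62%) had a summit, beside 10.2% of all genes, and with any base of a peak within 1 kb eIF4G2 joined the bound 3 (7.69%, beside 8.09%).

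Farther out, 13 members (25%) had a conservative summit within 10 kb, beside 29.3% of all genes. For the other 8 of them, between 2 and 10 kb away, only eEF1gamma, which encodes a structural subunit of eEF1, was the gene nearest to such a summit. It had an intergenic peak of 303 at 3R 29214352 to 29214557, 5713 bp upstream, with 159.8 in replicate 1 and 148 in replicate 2, and a second of 117, nearest to Cyt-c1L, lay 8926 bp upstream. The eIF3j gene had a peak of 421 at 9028 bp, with 274 in replicate 1 and 149 in replicate 2, but this summit was 169 bp from the TSS of Pdrg1. The peaks near eIF2beta (195 and 206), eIF3m (205), eIF3i (169.8), eIF3h (70.3), eIF2D (68.2) and eIF3g1 (65) likewise had a TSS of another gene within 1 kb.

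Most other members had only weak regions at their promoters. A ranked region of any strength lay within 1 kb of a TSS in 45 of 52 members (86.5%), beside 88.5% of all genes. With a gene that lacked a region counted as 0, the median signal of the strongest region was 23 over the members and 24.8 over all genes. In replicate 1 the medians were 13.6 and 13.8 and in replicate 2 12.2 and 13.1. These medians lay close together, while the share of members with a region was lower than that of all genes in replicate 2 (69.2% beside 79.5%) and not in replicate 1 (73.1% beside 72.2%).

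Leaving out eIF2Bbeta, eIF6, eIF5B and eIF4EHP, the remaining 48 had a median of 22.1 and a highest value of 68.9, that of eIF3c. Next came eIF1, a scanning factor of the small subunit (44.4 in the pool, 27.4 in replicate 1 and 17.1 in replicate 2). It was followed by eIF4E6, a cap-binding paralogue (40.7, 15.1 and 24.8), and by eEFSec, the elongation factor for selenocysteine (39.1, 18.2 and 23.1). The scores of these regions, 439, 210 and 403, were below 830, so they did not pass the IDR threshold. No pooled ranked region was listed within 1 kb of eEF1delta, eEF5, eIF3i, eIF3l, eIF4B, eIF4E5 and eIF4G1. A single replicate had a weak region at 3 of these genes, with 14.9 at eEF1delta and 8.79 at eIF4E5 in replicate 1 and 15.1 at eEF5 in replicate 2. At eIF4B and eIF4G1 no conservative summit was found in a wide span around the gene either. How well reads cover these loci was not assessed, so a missing region need not mean an unbound promoter.

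**Figure D4:**
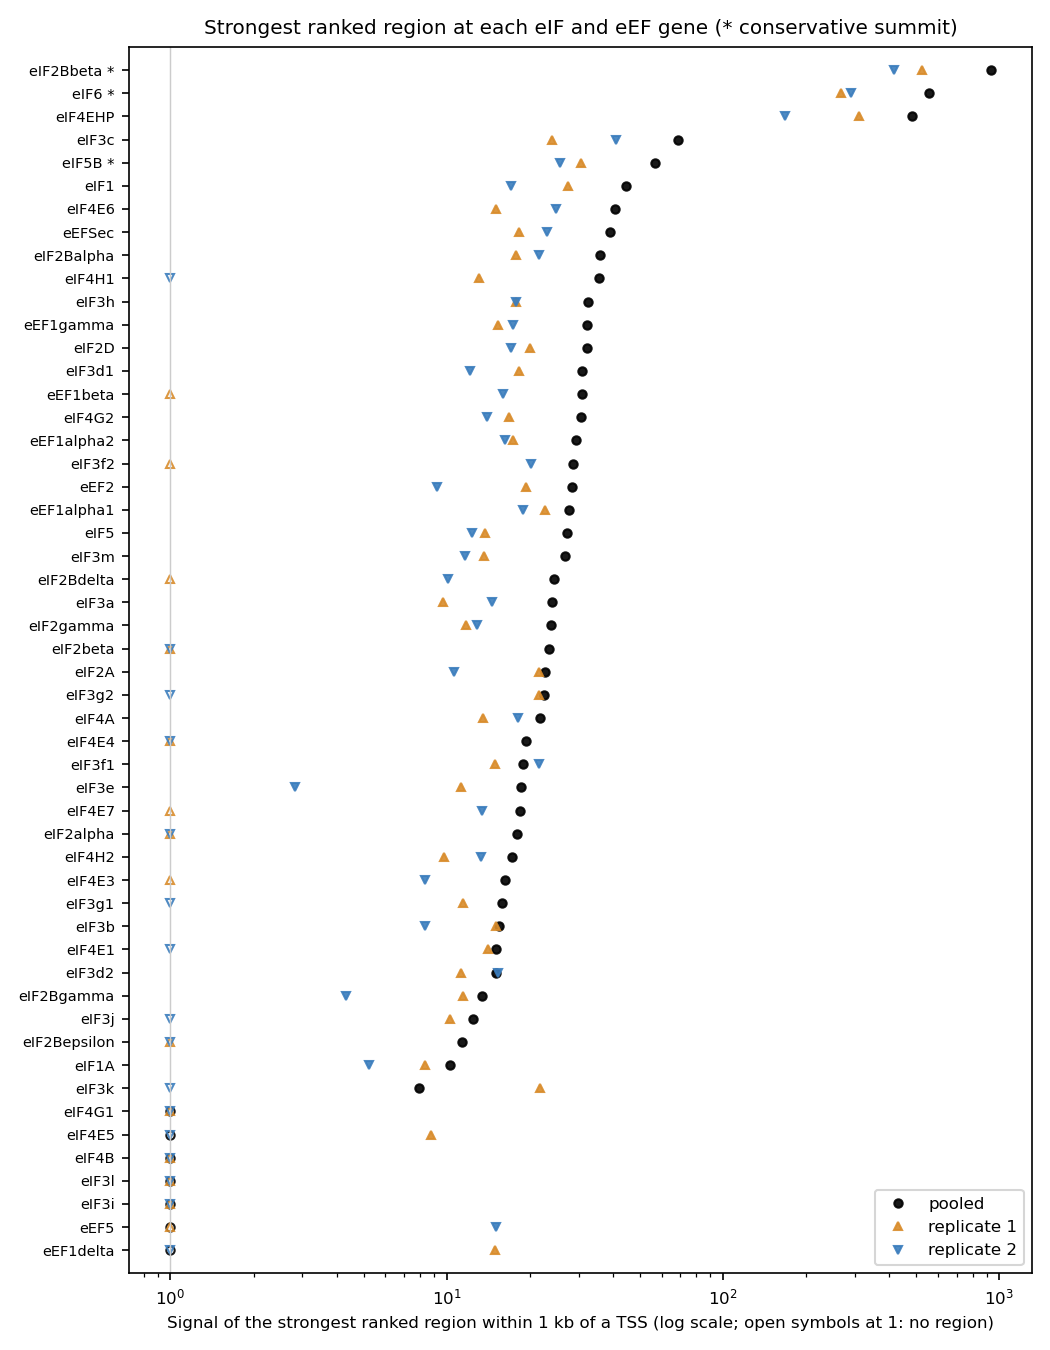
Signal of the strongest ranked region within 1 kb of a TSS (x axis, log scale) for each of the 52 genes (y axis), in the pooled list and in each replicate; open symbols at 1 mark genes without a region and asterisks the bound genes. eIF2Bbeta (932), eIF6 (557) and eIF4EHP (482) stand well above the rest, of which eIF3c (68.9) is the highest.

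In eIF2B and the eIF4E group a single gene stood above the others, and the remaining roles were weak throughout or had too few genes to compare. Within eIF2B, the strongest region had 932 at eIF2Bbeta and from 11.4 to 35.8 at the genes of the other 4 subunits, alpha, gamma, delta and epsilon. In the eIF4E group the value was 482 at eIF4EHP and at most 40.7 at the other 6 genes, with 15.1 at eIF4E1, the main cap-binding factor. The summits behind 932 and 482 lay nearer to a TSS of another gene, 39 bp from Ugalt and 140 bp from CG18428. Both contrasts may therefore not concern the eIF genes. In eIF3 values ran from no region to 68.9, with a median of 18.7 over 16 genes, and in eEF1 from no region to 32.2 over 5 genes. The eIF2 genes ranged from 17.9 to 23.9, the eIF4B and eIF4H genes from no region to 35.5, and the eIF4G genes from no region to 30.5. No complex in this set had more than 1 bound subunit, which says little where only 3 of 52 members were bound.

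Bound members shared their promoter regions with other genes. All 3 had a TSS of another gene within 1 kb of their own, which held for 28 of 52 members (53.8%) and 42.9% of all genes. Of these 28 members 10.7% were bound, and of the 24 without such a neighbour 0 were, beside 11.1% and 5.13% of all genes in these classes. Several TSSs were annotated for 20 members (38.5%, beside 26.5% of all genes). Of genes with several TSSs 14.9% were bound among all genes and 1 of 20 (5%) among the members. Of genes with 1 TSS 5.11% were bound among all genes and 2 of 32 (6.25%) among the members. Counts this small say little about a difference.

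Summits at 4 loci were poorer in G and C than their flanks, but the bound ones were not poor among summits. In the 100 bp window around the summit G and C made up 34% at eIF2Bbeta, 39% at eIF5B and 38% at eIF6, and 33% at the median of all 1799 conservative windows on the arms. Of those windows 52.5%, 69.3% and 66.9% had a lower share than eIF2Bbeta, eIF5B and eIF6. Over all promoters, from 250 bp before to 50 bp after the outermost TSS, the median was 38%, and over those of the members 36.2%. The window of the eIF4EHP region had 17%, and 0.778% of the conservative windows had a lower share. In flanks centred 300 bp to both sides the shares were 38.5%, 44.5%, 61% and 42% at eIF2Bbeta, eIF5B, eIF6 and eIF4EHP, higher than at the summit at each of the 4. Exon bases were not left out of these flanks. At all 4 loci the flank on the side of lower coordinates lay within an annotated gene, namely Ugalt, eIF5B, eIF6 and eIF4EHP. Whether gene sequence in the flanks accounts for the difference was not tested. Flanks of the other conservative summits were not measured, so whether such a difference is usual is unknown. The sequences printed above show the runs of A and T but leave out exon bases. At eIF5B the 62 printed bases had 25.8% G and C, below the 39% of the full window. TTTAAA was in the eIF2Bbeta window (20.3% of all conservative windows hold it on either strand), AAATAT in those of eIF5B and eIF6 (30.1%), and TAATTA in that of eIF4EHP (8.95%), where it occurs at 2 places. A match of letters describes the window and shows no bound factor.

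Several short words were in a larger share of member promoters than of all promoters, and no test was made of these shares. In the same window from 250 bp before to 50 bp after the outermost TSS, the 8-base word TATCGATA, the element bound by the factor DREF, was on either strand of 14 of 52 member promoters (26.9%) and 9.36% of all promoters. CGATA, which lies inside that word, was in 63.5% and 47.4%, and GGTCACAC, part of another core promoter motif, in 11.5% and 7.7%. GAGAGAG was in 1 member promoter, that of eIF3g2 (1.92%), and in 5.87% of all. For the words of A and T the shares were 61.5% and 53.7% for AAATAT, 48.1% and 38.9% for TTTAAA, and 26.9% and 20.4% for TAATTA.

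The share of bound genes differed little between most of these words. It ran from 7.47% of all genes with TAATTA in this window to 12.7% of those with GAGAGAG. Of all genes with TATCGATA 7.66% were bound, close to the 7.7% of all genes, and of the 14 members with it 2 were, eIF2Bbeta and eIF6. In the 100 bp windows around summits, which are shorter than these promoters, TATCGATA was in 0.389%. The summit of the eIF2Bbeta peak lies outside the promoter window of that gene. A polypyrimidine initiator, known from ribosomal protein promoters, was sought as the letters CTTT followed by C or T on the gene's strand, with the first C within 5 bp of a TSS. It was found at 6 of 52 members (11.5%), eEF2, eEF5, eIF3f1, eIF3i, eIF3m and eIF4A, at 5.13% of all genes and at 63.6% of 88 cytosolic ribosomal protein genes. Of the 6 members 0 were bound, beside 12.6% of all genes with this initiator and 7.14% of the cytosolic ribosomal protein genes with it, and so small a number says little about the members.

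Other genes of translation were counted in the same way, to be read beside 7.7% of all genes, or 5.68% by nearest TSS. Of 27 regulators of initiation 5 were bound (18.5%, Wilson 95% interval 8.18 to 36.7), among them pum (183), brat (149), larp (108 and 76.6) and pAbp (111), which encode RNA-binding regulators and the poly(A)-binding protein. The fifth, Elp6 (89.1), entered under its older name poly. Whether Elp6 regulates initiation was not examined, and its summit lay nearest to Dic1. Of 23 genes of cytosolic tRNA synthetases and their partners 4 were bound (17.4%, 6.98 to 37.1), SerRS (192), GluProRS (185), ThrRS (94.9 and 49.7) and beta-PheRS (55.8). By nearest TSS these counts were 4 and 3, since the summit at GluProRS lay nearest to AP-1sigma. The ThrRS peaks overlap each other and have the same replicate values (49.5 and 40.3), and the stronger was nearest to Patsas. None of 11 mitochondrial translation factors and none of 5 release, recycling and rescue factors was bound (0%, Wilson upper bounds 25.9 and 43.4). DENR, MCTS1 and NAT1, factors whose symbols do not begin with eIF or eEF, were not bound.

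Among ribosomal protein genes 6 of 88 cytosolic (6.82%, 3.16 to 14.1) and 8 of 73 mitochondrial ones (11%, 5.66 to 20.2) were bound. The share of all genes was 7.7%, or 5.68% by nearest TSS. The cytosolic ones, RpL32 (157), RpS19b (154), RpL34b (75.1), RpL23 (68.6), RpS27 (67.7) and RpL14 (54), were all weaker than eIF6. Of the mitochondrial ones mRpL41 (595) was stronger than eIF6, while mRpS23 (531), mRpL23 (487), mRpS10 (455), mRpL24 (198), mRpL20 (149), mRpS2 (136) and mRpL34 (68.7) were weaker. By nearest TSS these counts were 5 and 3, since the summits at mRpS23, mRpS10, mRpL24, mRpL20 and mRpS2 lay nearest to CenG1A, Art3, betaggt-I, Icmt and Mon1, and that at RpS19b to CG5854. No difference between these lists was tested. The interval of the eIF and eEF genes overlapped those of all the others, which does not show that the shares are equal.

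**Figure D5:**
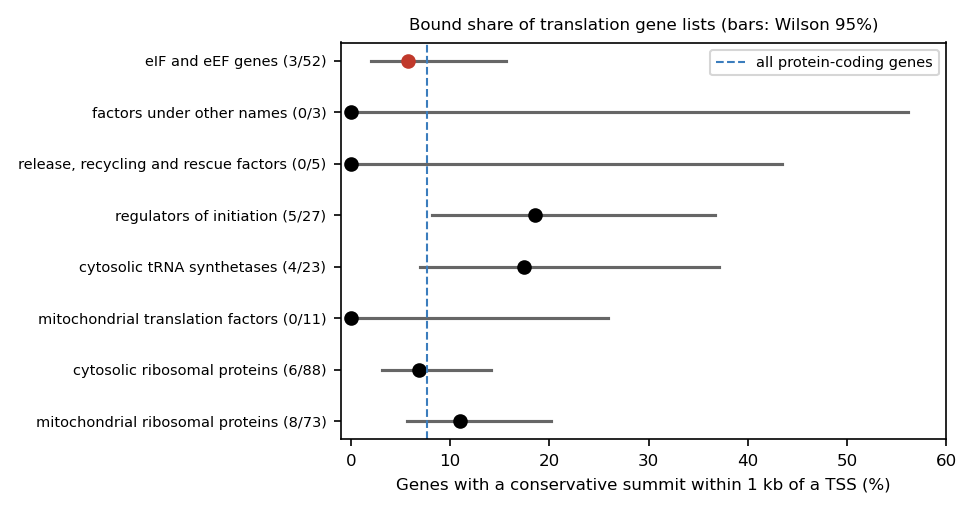
Share of genes with a conservative summit within 1 kb of a TSS (x axis, percent) for lists of translation genes (y axis, bound and total numbers in brackets); bars are Wilson 95% intervals and the dashed line is the share of all genes, 7.7%. The eIF and eEF genes lie at 5.77% with an interval that includes the line.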

How the data were processed

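The authors deposited ranked and IDR-thresholded peak lists for each of the 2 replicates and for their pool, with positions on dm6 per the labels. Per the file descriptions deposited with the samples, the lists were derived from alignments and a control; the sources used here do not name the aligner or the peak caller. The deposited signal is a peak strength of unstated scaling, the deposited score is a scaled IDR capped at 1000, and the deposited −log10 values give the IDR, which is 0.01 at a score of 830. The control was not analysed here. It was the same for both replicates, and its share in their agreement was not tested.

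Genes and TSSs (starts of protein-coding transcripts) came from Ensembl release 115 and sequence from RefSeq, both on dm6. The pooled ranked list used was the one that holds every conservative peak. Replicate values are those of the strongest region of the replicate's own ranked list that overlaps the peak by at least 1 bp, or, for the strongest region of a promoter, that has its summit within 1 kb of a TSS. Of 81 list entries 4 had no match, and 7 were members under older names. Python 3.11.15 and SciPy 1.17.1 were used. The counting was tested on simulated data of 200 planted summits.

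Members and lists were chosen with earlier results of these data known, so shares, ranks and medians are given as descriptions beside all genes, with no test. Named members were those bound, those with a summit within 10 kb, those in another thresholded list and the 3 unbound members with the strongest ranked regions. Named others were genes sharing a bound promoter, the bound genes of the lists and the neighbours of eIF6 in the order of signal. The attention given to eIF4EHP, and all other names, including eIF4E6, eEFSec and eIF4E1, were picked with their values in view. The alternatives tried were the other lists, distances, thresholds, TSS definitions and overlaps.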

Additional observations from a re-analysis of the deposited data

Results flagged for a closer look

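The region at the eIF4EHP promoter drew attention because it is a strong signal in data outside the conservative list. Its pooled signal of 482 stood in the ranked lists of the pool and of both replicates (311 and 168), and no thresholded list held it. The role of the further file from which the thresholded lists were derived was not stated, and its part in this absence was not tested.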

How the results depend on the processing

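The bound share ran from 3.85 to 9.62% under the 13 alternatives, with the background beside it moving from 4.35 to 10.2%. These ranges cover peaks at or above the median signal (3.85%, beside 4.9% of all genes), an IDR of at most 0.001 (3.85%, beside 4.35%), the outermost TSS alone (5.77%, beside 6.39%), any base of the peak (7.69%, beside 8.09%) and 3 added factors under other names (5.45%). A share of 3 genes is a coarse measure, since each gene moves it by 1.92 percentage points. The percentage of peaks above eIF6 was 0.606% in the conservative list, 0.569% in the optimal list and from 0.487 to 1.71% with a single replicate. The median signal at bound members fell from 557 to 313 in the optimal list, where eIF3c joined, and was 290.4 to 396 with a single replicate, whose lists have their own scale. The median offset was -102 bp in the conservative list, -97 bp in the optimal list, -169 bp with the regions outside the conservative list added, and from -398 bp (replicate 1 alone, with 2 genes) to -102 bp (replicate 2 alone) with a single replicate. The count of bound members in both replicates stayed at 2 under both other overlap rules. The regions at IDR 0.01 that are absent from the conservative list were added after seeing the data. No paired analysis was possible because the replicates form 1 group. Depth could not be assessed from peak lists.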
